A study of Mus musculus with 10 samples.

Results

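Genes whose transcript level differed from the line P1 in the same direction in both CP lines were examined in 10 mouse prostate orthografts, tumours grown from cultured prostate cancer cells that had been placed back into a prostate. A gene was taken when all 7 CP tumours (3 of CP1 and 4 of CP2) lay above, or all 7 lay below, all 3 P1 tumours in CPM, the read count of a gene per 1000000 counts of its scaled library. Of 17644 genes with enough counts to be tested, 5928 met this rule. They comprised 2916 genes that were higher in the CP tumours (16.5% of the genes tested) and 3012 that were lower (17.1%). The members were therefore chosen by the comparison of the CP tumours with P1 itself. Their levels and fold changes against P1 are given as a description without a test, and tests are given only for CP2 against CP1, which the rule did not use.

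Each tumour came from about 5000000 cells of 1 line, injected into an anterior prostate lobe of a male mouse of the strain CD-1 Nude, which lacks a normal thymus and keeps its other immune cells. CP1 and CP2 were made from prostate tumours of Ctnnb1pc(ex3)Δ/+ mice at 6 and 8 months, which carry a deletion of exon 3 of Ctnnb1 on 1 copy. P1 was made from a prostate tumour of a mouse at 14 months without that deletion, and the P1 and CP donors differed at another allele as well. All 3 lines were grown in 3D culture up to passage 4 and then in 2D culture. Each line stands for 1 donor tumour, so that line, genotype and donor age cannot be told apart in any value below. The labels do not tie the libraries to separate animals, and p-values measure the spread between these samples, which may in part be technical.

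Ctnnb1 encodes beta-catenin, which joins cadherins to the cytoskeleton at adherens junctions and acts in the nucleus as the coactivator of TCF and LEF factors in canonical Wnt signalling. Exon 3 holds the residues by which a destruction complex built on Axin and APC marks the protein for breakdown, so that its deletion leaves a stable protein. Cells that receive a Wnt signal switch on a set of feedback inhibitors, among them Axin2, Nkd1, Notum and Znrf3, which are widely used as readouts of the pathway.

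Total counts per library ranged from 28050484 to 37180721 in P1, from 25081535 to 30546426 in CP1 and from 18800912 to 20638085 in CP2. One label disagreement bears on CP2 replicate 1, which is titled CP1 but given as CP2 under tissue and source. It is treated as CP2 here. Its log2 CPM correlated at 0.984 on average with its fellow CP2 tumours, at 0.912 with those of CP1 and at 0.842 with those of P1. The count of members does not depend on this assignment, since the rule pools all CP tumours. Transcripts on a list of seminal vesicle and secretory prostate genes made up 15.5% of the counts in P1 replicate 1, 6.87% in replicate 2 and 2.09% in replicate 3. They made up 0.00157% to 0.174% in the 7 CP tumours. Whether they came from tissue beside the graft or from the graft itself was not tested. Urothelial markers made up 0.189% in CP1 replicate 2 and 0.0813% in CP1 replicate 3, against 0.0130% to 0.0621% in the other 8 tumours. Results are therefore also given without P1 replicates 1 and 2, or without CP1 replicates 2 and 3, where that moves them by more than 1.5 times. Each choice leaves 1 tumour in its line, so that a call lost there can come from the smaller number of tumours alone. Hoxb13, a homeobox gene of the prostate, was at 38.9 to 72.2 CPM in P1 and 44.5 to 59.5 CPM in CP and was no member.

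The 2 directions differed in the width of the gap. A closest-pair ratio was computed for each member as the lowest tumour on the higher side divided by the highest tumour on the lower side, with levels under 3 counts raised to 3 counts. This ratio was at least 2 for 508 of the higher members (17.4%) and for 1023 of the lower members (34.0%). It was at least 16 for 35 higher and 139 lower members, and at least 100 for 0 higher and 19 lower members. The median log2 fold change, given throughout as the mean of CP1 and CP2 minus P1, was 0.94 for the higher members and -1.57 for the lower members, against -0.0005 for all genes tested. With the genes split by mean expression into 3 classes of like size, 24.6% of the most abundant class were higher members and 14.5% lower members, and of the least abundant class 8.43% and 17.0%. At the edge of the rule, Noa1 was just inside with P1 tumours at 29.9 to 39.7 CPM and the highest CP tumour at 29.9 CPM, while Raly was just outside, with a P1 tumour and a CP tumour both at 252 CPM.

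**Figure D1:**
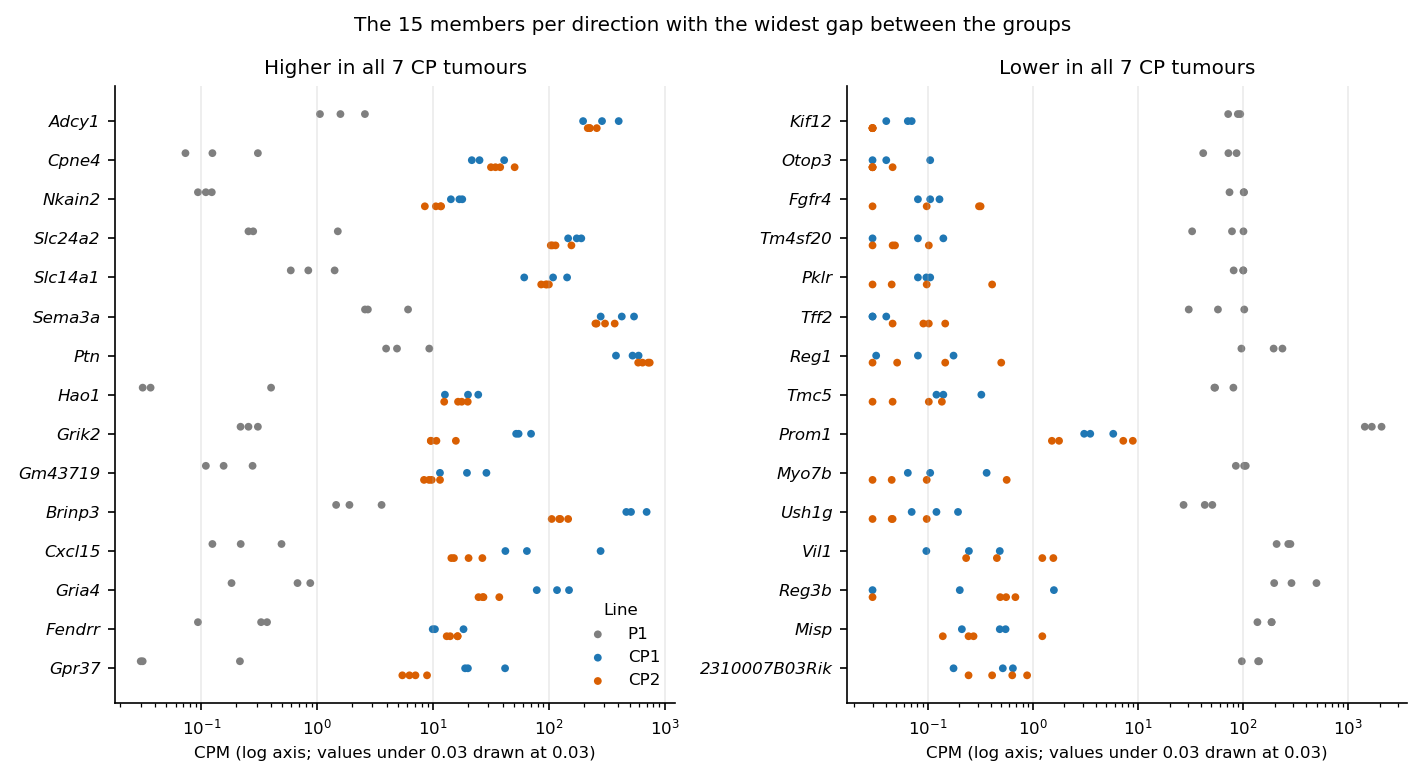
CPM on a log axis for the 15 members in each direction with the widest gap between the groups, 1 point per tumour (P1 n = 3, CP1 n = 3, CP2 n = 4). The groups do not overlap for any gene shown, by the rule, and several of the lower members sit at the left edge in the CP tumours.

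Wnt feedback genes were among the higher members, while the level of the Ctnnb1 transcript was lower. Of 28 tested genes on a list of Wnt feedback inhibitors and targets, 10 were higher in all CP tumours and 7 were lower, with a median log2 fold change of 0.94. Axin2, a scaffold of the destruction complex and a direct target of the pathway, was at 31.9, 35.4 and 18.6 CPM in the P1 tumours, at 206, 224 and 215 in CP1 and at 649, 637, 571 and 583 in CP2. Every CP2 tumour was thus above every CP1 tumour and every CP1 tumour far above P1, with a common log2 fold change of 3.66 ± 0.20. Apcdd1, an inhibitor that binds Wnt at the cell surface, was at 28.9, 8.61 and 11.5 CPM in P1, 727, 1050.1 and 571 in CP1 and 4033, 3195, 3314 and 3500.2 in CP2, and its log2 fold change was 6.66 ± 0.49. The same order of the 3 lines held for Notum, an enzyme that inactivates Wnt by removing its lipid, with 6.13, 4.49 and 4.34 CPM in P1, 48.8, 59.0 and 22.2 in CP1 and 679.5, 533, 506 and 455 in CP2. Nkd1, which dampens the signal at Dishevelled, was at 49.7, 29.9 and 22.6 CPM in P1, 159, 210.0 and 98.1 in CP1 and 1802, 1913, 1729 and 1775 in CP2. For Nkd1, as for the 3 genes before it, CP1 lay between P1 and CP2 without overlap.

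Among the transcription factors of the pathway, Tcf7 and Lef1 followed the same order, whereas Tcf7l2 was a lower member (log2 fold change -0.98) and Tcf7l1 overlapped between the groups (-0.27). Tcf7 was at 25.8, 22.1 and 15.4 CPM in P1, 55.2, 48.9 and 31.0 in CP1 and 236, 264, 235 and 286 in CP2, and its smallest CP1 value was 1.20 times the largest P1 value. Lef1 was at 5.79, 4.30 and 4.60 CPM in P1, 9.19, 7.76 and 8.55 in CP1 and 26.5, 30.5, 28.7 and 30.4 in CP2. The differences between the CP lines passed the test for all 6 of these genes (edgeR quasi-likelihood test, Benjamini-Hochberg adjusted over 17644 genes). On the log2 scale CP2 exceeded CP1 by 1.504 ± 0.19 for Axin2 (adjusted p = 0.000221), by 1.77 ± 0.14 for Lef1 (adjusted p = 1.36e-05) and by 2.50 ± 0.23 for Tcf7 (adjusted p = 3.42e-05). It did so by 3.54 ± 0.33 for Nkd1 (adjusted p = 3.67e-05), by 3.65 ± 0.33 for Notum (adjusted p = 3.24e-05) and by 2.16 ± 0.40 for Apcdd1 (adjusted p = 0.00181). The other feedback genes higher in CP were Znrf3, Dkk1, Dkk2 and Tnfrsf19.

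Other genes of the Wnt list lay the other way, some of them known as targets in the intestinal crypt. Such targets did not move as a class. Lgr5, Rnf43 and Cd44 overlapped between the groups, with log2 fold changes of -0.85, 0.47 and 0.20. Ephb2, a receptor of crypt progenitors, was at 48.0, 42.1 and 33.7 CPM in P1 and at 1.69 to 6.95 CPM over the 7 CP tumours, with a median of 4.78. Lgr4, a receptor for R-spondins, was at 199, 232 and 177 CPM in P1, 25.8, 38.9 and 38.7 in CP1 and 35.4, 29.5, 27.0 and 20.8 in CP2, a log2 fold change of -2.70 ± 0.17. Ascl2, a stem cell transcription factor, reached 1.60, 2.65 and 2.56 CPM in P1 and no more than 0.552 CPM in CP. Myc was lower in CP as well, with 86.4, 86.7 and 116 CPM in P1, 64.9, 58.0 and 74.3 in CP1 and 42.5, 45.4, 43.1 and 40.0 in CP2. The CP2 tumours held the lowest Myc levels of all, and CP2 differed from CP1 by -0.62 ± 0.12 on the log2 scale (adjusted p = 0.00299). Ephb3, Sox9 and Fgf9 completed the 7 lower genes. Ccnd1 was no member, because CP1 at 313, 389 and 405 CPM overlapped P1 at 349, 472 and 445 CPM, although CP2 reached 930 to 1154 CPM.

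The Ctnnb1 transcript itself was at 1798, 1953 and 1902 CPM in P1, 1172, 917 and 1135 in CP1 and 1042, 1044, 937 and 1011 in CP2. All CP tumours were below all P1 tumours, the log2 fold change was -0.86 ± 0.10, and the difference between CP2 and CP1 of -0.09 ± 0.11 did not pass the test (adjusted p = 0.538). A count per gene does not separate transcripts with and without exon 3, so that it checks neither the deletion nor the level of the protein. Among 29 genes of the beta-catenin core and adherens junctions, 10 were lower, among them the catenins Ctnna1, Ctnnd1 and Jup and the cadherins Cdh1, Cdh3, Cdh6, Cdh11 and Cdh17, and 4 were higher (7 without P1 replicates 1 and 2).

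The Wnt ligands and receptors were divided, with 9 higher, 10 lower and a median log2 fold change of 0.03 over 35 genes. Wnt5a, a ligand best known for signalling without beta-catenin, was at 39.3, 16.4 and 11.9 CPM in P1, 1371, 1041 and 1067 in CP1 and 532, 583, 624 and 599.8 in CP2. Its level in CP1 was above that in CP2 without overlap, and the common log2 fold change was 5.19 ± 0.41. The difference of -0.99 ± 0.33 between CP2 and CP1 passed the test with all tumours (adjusted p = 0.0336) and missed it when any single CP tumour was left out (adjusted p from 0.0553 to 0.0981). Wnt6 was at 1.76, 0.749 and 0.730 CPM in P1, 24.9, 44.3 and 20.3 in CP1 and 137, 176, 176 and 154 in CP2, so that here CP2 was the higher line, by 2.43 ± 0.31 on the log2 scale (adjusted p = 0.000256). Wnt2 was at 47.3, 28.1 and 29.8 CPM in P1 and at 211 to 409 CPM over the CP tumours. In the other direction, Wnt7b was at 197, 146 and 164 CPM in P1 and 19.7 to 48.7 CPM in CP. For Wnt7a the P1 tumours held 94.8, 58.5 and 69.6 CPM, the CP1 tumours 0.0353, 0 and 0.122 and the CP2 tumours 1.75, 1.28, 2.42 and 2.61. The secreted antagonist Frzb was at 127, 53.1 and 47.0 CPM in P1 and at 4.70 to 17.3 CPM in CP. Without P1 replicate 1 the log2 fold change was 7.35 for Apcdd1 and 5.84 for Wnt5a, and without P1 replicates 1 and 2 it was 4.25 for Axin2 and 6.08 for Wnt5a.

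**Figure D2:**
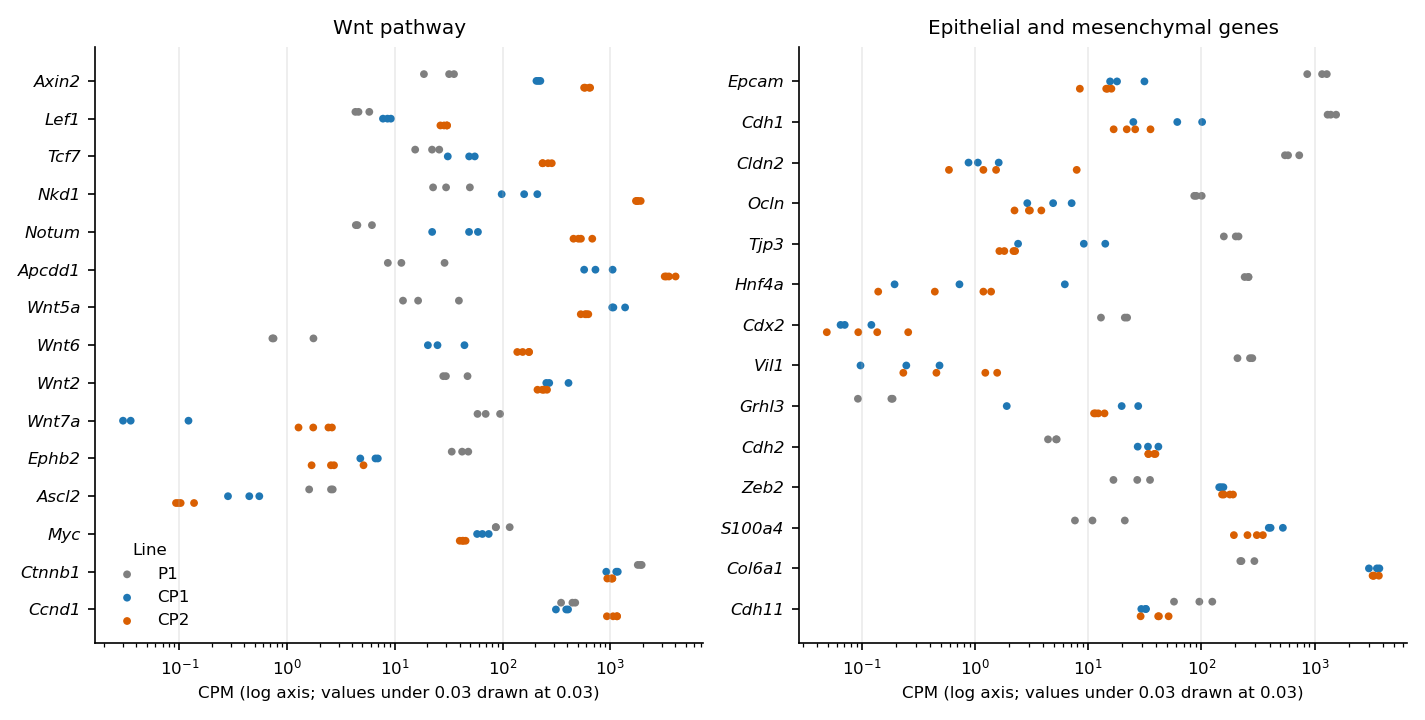
CPM on a log axis for 15 genes of the Wnt pathway (left) and 14 epithelial and mesenchymal genes (right), 1 point per tumour (P1 n = 3, CP1 n = 3, CP2 n = 4). Axin2, Nkd1, Notum and Apcdd1 step up from P1 to CP1 to CP2, Ccnd1 in CP1 overlaps P1, and Epcam, Cldn2 and Hnf4a are lower by 1 or more orders of magnitude in both CP lines.

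The widest gap among the higher members was that of Adcy1, a calcium-sensitive adenylyl cyclase of the brain. It was at 2.59, 1.59 and 1.06 CPM in P1, 289, 198 and 402 in CP1 and 259.9, 217, 225 and 226 in CP2. The 2 CP lines overlapped, the closest-pair ratio was 76.5, and the log2 fold change was 7.22 ± 0.37. Cpne4, a calcium-binding membrane protein, was at 0.308, 0.125 and 0.0730 CPM in P1, 41.2, 25.3 and 21.7 in CP1 and 31.7, 34.7, 38.1 and 50.8 in CP2. Slc24a2, a sodium, calcium and potassium exchanger of retina and brain, was at 1.51, 0.281 and 0.256 CPM in P1, 191, 147 and 175 in CP1 and 157, 114, 104 and 108 in CP2. P1 replicate 1 held the highest P1 level of all 3 genes. Nkain2, which binds the sodium pump, was at 0.123, 0.0936 and 0.1095 CPM in P1, 16.9, 17.9 and 14.3 in CP1 and 11.8, 10.6, 11.6 and 8.52 in CP2, with CP1 above CP2 in every tumour.

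Secreted guidance and growth factors were also present. Sema3a, a repulsive guidance cue for axons, was at 6.10, 2.74 and 2.59 CPM in P1, 545, 427 and 281 in CP1 and 371, 259, 306 and 253 in CP2. Ptn, the heparin-binding growth factor pleiotrophin, was at 9.30, 4.90 and 3.94 CPM in P1, 381, 597 and 529 in CP1 and 592, 645, 722 and 745 in CP2. The CP lines overlapped for both genes, with log2 fold changes of 6.52 ± 0.41 and 6.59 ± 0.35. Slc14a1, a urea transporter, was at 1.42, 0.593 and 0.840 CPM in P1 and at 61.4 to 144 CPM in CP. Fendrr, a long non-coding RNA named after the neighbouring Foxf1 gene, was at 0.370, 0.0936 and 0.329 CPM in P1 and at 9.96 to 18.4 CPM in CP. No label says if strand was used in counting, so reads of an antisense RNA and its partner cannot be told apart.

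Several higher members differed between the CP lines, with CP1 above CP2 for the glutamate receptor subunits Grik2 and Gria4. Grik2, a kainate receptor subunit, was at 0.308, 0.218 and 0.256 CPM in P1, 54.9, 70.4 and 52.3 in CP1 and 15.8, 9.62, 10.7 and 9.59 in CP2, and Gria4, an AMPA receptor subunit, was at 0.678, 0.873 and 0.183 CPM in P1, 118, 149.7 and 78.8 in CP1 and 37.4, 26.9, 27.3 and 24.8 in CP2. No CP1 tumour overlapped a CP2 tumour for either gene. On the log2 scale, CP2 minus CP1 was -2.37 ± 0.19 for Grik2 (adjusted p = 1.70e-05) and -1.99 ± 0.29 for Gria4 (adjusted p = 0.000505). The same held for Brinp3, expressed in developing neurons, at 3.60, 1.90 and 1.46 CPM in P1, 700.4, 513 and 468 in CP1 and 147, 106, 123 and 126 in CP2, and for the orphan receptor Gpr37, at 0.216, 0.0312 and 0 CPM in P1, 18.97, 42.0 and 20.1 in CP1 and 6.27, 7.07, 8.90 and 5.45 in CP2. Robo2, a receptor for Slit proteins, took the opposite order, with 2.09, 1.06 and 0.913 CPM in P1, 41.1, 48.6 and 27.8 in CP1 and 117, 112, 129.5 and 131 in CP2. Over the neural and neural crest list, 8 of 21 tested genes were higher and 2 lower (5 without P1 replicates 1 and 2), with a median log2 fold change of 0.44. The axon guidance list, at 7 higher (11 without P1 replicates 1 and 2) and 9 lower of 36, stood near the shares of all genes in both directions. The nerve and Schwann cell marker list had 2 higher and 3 lower of 11 (5 and 5 without P1 replicates 1 and 2). Summed, these markers were 0.02201% to 0.02301% of counts in P1 and 0.02542% to 0.04101% in CP, without overlap. Sox10, a marker of Schwann cells, was at 0 to 0.972 CPM in all 10 tumours. The part of nerve tissue in the neural genes was not tested. Without P1 replicate 1 the log2 fold change was 9.02 for Slc24a2 and 8.30 for Cpne4, while that of Gpr37 rested on 1 count in P1 and is not given. Without P1 replicates 1 and 2 it was 9.08 for Slc24a2, 8.24 for Gria4, 7.92 for Adcy1, 7.47 for Brinp3 and 7.18 for Ptn.

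The widest gap among the lower members was that of Kif12, a kinesin of kidney and liver epithelium. It was at 72.2, 94.0 and 89.1 CPM in P1 and was all but absent from the CP tumours, with 5 counts in all of CP1 and 0 in CP2 against 7797 in P1. Fgfr4, the receptor of bile acid signalling by FGF15, was at 74.3, 102 and 101 CPM in P1 and at 0 to 0.319 CPM in CP. Pklr, the pyruvate kinase of liver, was at 81.4, 100.5 and 100.4 CPM in P1 and at 0 to 0.411 CPM in CP. Fgfr4 had a log2 fold change of -9.33 ± 0.33 and Pklr of -9.65 ± 0.36, which became -10.35 without CP2 replicate 1. Prom1, the membrane protein CD133 of luminal and progenitor cells, was far more abundant, at 1436, 2072 and 1674 CPM in P1, 5.83, 3.08 and 3.52 in CP1 and 8.94, 1.52, 1.78 and 7.26 in CP2. The seminal vesicle and secretory prostate list made up 15.5%, 6.87% and 2.09% of counts in these P1 tumours and at most 0.174% in CP. The part of seminal vesicle tissue in this gap was not tested. The secreted peptides Tff2 and Reg1 were at 30.4 to 103 CPM and at 96.4 to 237 CPM in P1, and at most at 0.147 and 0.502 CPM in CP.

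Of 18 tested markers of intestinal epithelium, 17 were lower and 0 higher, with a median log2 fold change of -6.63. Vil1, the villin of microvilli, was at 208, 282 and 269 CPM in P1, 0.247, 0.0974 and 0.486 in CP1 and 1.23, 1.57, 0.456 and 0.233 in CP2. Lgals4, a galectin of the gut lining, was at 714, 1379 and 1598 CPM in P1 and at 2.09 to 8.12 CPM in CP, a log2 fold change of -7.91 ± 0.41. The transcription factors that set intestinal and hepatic identity were lower with them. Hnf4a was at 241, 259.7 and 261 CPM in P1, 6.22, 0.195 and 0.729 in CP1 and 1.39, 0.442, 1.19 and 0.140 in CP2, where CP1 replicate 1 alone exceeded 2 CPM, and without it the log2 fold change of -7.53 ± 0.71 became -8.76 (-6.84 without CP1 replicates 2 and 3). Cdx2 was at 13.0, 22.1 and 21.1 CPM in P1 and at 0.0491 to 0.257 CPM in CP. All 7 tested mucins and 6 of 9 UDP glucuronosyltransferases, which share near-identical copies between which counting may split reads, were lower. The summed markers of intestinal epithelium were 0.146% to 0.298% of counts in P1, 0.00604% to 0.0106% in CP1 and 0.00849% to 0.0129% in CP2. In bulk tumours, fewer cells of a type and less RNA per cell cannot be told apart.

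Most genes of the epithelial junction and transcription lists were lower, and more genes of the mesenchymal list were higher than lower. Of 29 tested junction genes, 23 were lower and 1 was higher (2 without P1 replicates 1 and 2, and 0 with DESeq2 size factors), with a median log2 fold change of -3.10. Of 25 epithelial transcription factors and splicing regulators, 19 were lower and 1 higher, with a median of -3.85. Of 17 prostate basal genes 6 were lower, 1 was higher (4 without P1 replicates 1 and 2) and 10 overlapped, with a median of -0.08. Krt5, Krt15 and Trp63 were among those that overlapped. Of 24 genes of the mesenchymal transition, 12 were higher, 1 was lower (3 without CP1 replicates 2 and 3) and 11 overlapped, with a median of 1.51. The overlapping ones went both ways, from Tagln (-1.48) and Acta2 (-0.82) to Twist1 (1.49) and Snai2 (2.27). The higher genes included Snai1, Zeb1 and Zeb2, repressors that bind E-box letters in the promoters of epithelial genes, together with Vim and Axl. The lower ones included Elf3, Ehf, Ovol1, Ovol2, Esrp1 and Esrp2, of which the last 2 direct epithelial splicing. Promoters of lower members held the E-box letters CACCTG more often than promoters of higher members, and examples are printed here because they are the letters that Zeb and Snai proteins are known to bind. Whether these proteins act on the genes shown was not tested. Each sequence gives 250 bases up to the first RefSeq start of the gene (GRCm38.p6, gene strand, 5′ to 3′), with CACCTG or its reverse complement CAGGTG in capitals. They show a luminal surface protein with 2 matches (Epcam, chr17:87635729-87635978, plus strand), a junction scaffold (Tjp3, chr10:81291582-81291831, minus strand) and the luminal gene Prom1 (chr5:44101737-44101986, minus strand). Added are the member with the widest gap (Kif12, chr4:63172132-63172381, minus strand), a fatty acid elongase with 2 matches (Elovl7, chr13:108214154-108214403, plus strand) and an intestinal galectin (Lgals4, chr7:28833544-28833793, plus strand). The last is the 1 epithelial transcription factor that was higher in CP and also holds the letters (Grhl3, chr4:135573633-135573882, minus strand).
Epcam: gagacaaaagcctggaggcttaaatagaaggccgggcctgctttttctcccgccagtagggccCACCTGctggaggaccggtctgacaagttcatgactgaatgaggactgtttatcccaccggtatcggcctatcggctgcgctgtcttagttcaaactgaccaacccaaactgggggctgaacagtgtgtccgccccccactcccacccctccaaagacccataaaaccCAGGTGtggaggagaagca
Tjp3: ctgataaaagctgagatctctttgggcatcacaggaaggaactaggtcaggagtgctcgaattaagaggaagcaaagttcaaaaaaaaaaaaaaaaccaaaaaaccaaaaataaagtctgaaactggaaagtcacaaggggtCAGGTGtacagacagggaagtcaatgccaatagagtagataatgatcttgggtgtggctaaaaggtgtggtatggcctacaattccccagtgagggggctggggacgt
Prom1: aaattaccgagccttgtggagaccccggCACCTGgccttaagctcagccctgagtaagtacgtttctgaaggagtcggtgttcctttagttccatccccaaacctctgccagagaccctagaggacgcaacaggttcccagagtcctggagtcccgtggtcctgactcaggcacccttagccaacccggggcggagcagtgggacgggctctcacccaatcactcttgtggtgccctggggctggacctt
Kif12: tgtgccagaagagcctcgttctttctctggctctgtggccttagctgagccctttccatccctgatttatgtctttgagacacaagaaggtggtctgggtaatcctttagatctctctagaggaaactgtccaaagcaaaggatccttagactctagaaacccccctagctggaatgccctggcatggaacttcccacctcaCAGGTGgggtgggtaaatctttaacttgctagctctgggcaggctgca
Elovl7: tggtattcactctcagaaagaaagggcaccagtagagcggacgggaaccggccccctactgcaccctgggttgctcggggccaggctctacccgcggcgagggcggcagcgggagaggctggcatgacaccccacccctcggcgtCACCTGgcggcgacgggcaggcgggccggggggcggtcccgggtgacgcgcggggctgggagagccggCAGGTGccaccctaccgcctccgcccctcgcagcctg
Lgals4: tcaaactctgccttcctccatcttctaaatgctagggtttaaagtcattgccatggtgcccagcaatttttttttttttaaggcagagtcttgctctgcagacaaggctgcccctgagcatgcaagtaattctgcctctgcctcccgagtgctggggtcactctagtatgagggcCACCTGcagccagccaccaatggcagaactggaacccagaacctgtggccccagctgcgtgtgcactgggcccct
Grhl3: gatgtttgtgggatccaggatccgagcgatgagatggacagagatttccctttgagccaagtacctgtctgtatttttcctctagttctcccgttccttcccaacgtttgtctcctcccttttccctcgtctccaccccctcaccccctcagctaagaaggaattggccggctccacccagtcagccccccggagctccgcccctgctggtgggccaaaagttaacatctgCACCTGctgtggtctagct

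RefSeq listed a promoter for 12270 of the 17644 genes tested (69.5%). Of the letters counted, only those of TCF and LEF were planned, and the others were added later. The intervals below treat genes as independent and are a description, not a test. Within 250 bases before to 50 bases after the first start, CACCTG was found on either strand in 622 of 2238 promoters of lower members (27.8%, exact 95% interval 25.9% to 29.7%). It was found in 318 of 2142 promoters of higher members (14.8%, 13.4% to 16.4%), in 16.4% of those of non-members and in 20.0% of all 27025 promoters of that length in the table. The share was 34.3% among lower members with a closest-pair ratio of at least 2 and 40.2% (41 of 102) with a ratio of at least 16. It was 18.4% among higher members with a ratio of at least 2 and 0% (0 of 25) with a ratio of at least 16. The ratio is computed from the levels that chose the members, so these shares are a description only. Promoters with 2 or more copies made up 5.59% of the lower and 1.26% of the higher members. With promoters split into 3 classes of like size by GC content, from low to high, the lower members held the letters in 23.0%, 30.7% and 30.3% and the higher members in 13.3%, 18.0% and 13.3%, so the order held in each class. For comparison, CAGCTG, the centre of another E-box, stood in 16.7% of lower and 16.4% of higher members (16.1% of all promoters), CACGTG in 8.76% and 9.52% (7.24%), and the shuffled letters CCACTG in 19.7% and 18.8% (20.8%). Among the lower genes with a promoter in the table, CACCTG was found in 9 of 12 junction genes (Cldn3, Cldn4, Crb3, Dsp, F11r, Marveld2, Ocln, Patj and Tjp3). It was found in 5 of 7 luminal genes (Epcam, Krt7, Krt8, Krt18 and Prom1) and in 7 of 14 intestinal ones. Of the other lists with at least 5 lower genes in the table, it was found in 3 of 8 genes of epithelial transcription and splicing, in 3 of 6 androgen targets and in 2 of 11 glutathione genes. It was found in 1 or 2 of 5 to 7 genes for both Wnt lists, oxidative phosphorylation, NF-kappaB and matrix genes. None of 8 immediate early, 6 axon guidance, 6 FGF and 5 beta-catenin core and adherens junction genes held it. The TCF and LEF letters CTTTGAT stood in 2.66% of higher and 2.86% of lower members, against 2.58% of all genes tested and 3.72% of all promoters. A match describes the letters in this window and not a bound site. Whether Zeb, Snai or other proteins lower these genes through such letters was not tested.

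**Figure D3:**
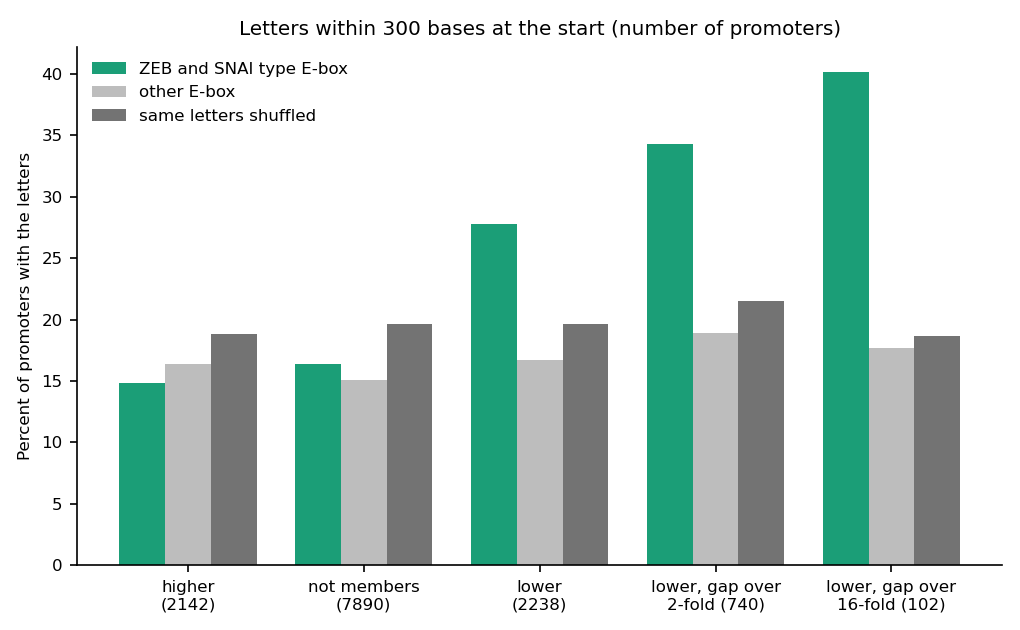
Percent of promoters (250 bases before to 50 bases after the start) that hold the ZEB and SNAI type E-box, another E-box or shuffled letters, for higher members, non-members, lower members and lower members with wider gaps between P1 and CP, with the number of promoters below each. The first bar climbs from 14.8% in higher members to 40.2% in the lower members with the widest gap, while the other bars stay between 15.1% and 21.5%.

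Among the genes whose promoters are printed, Epcam was at 862, 1165 and 1282 CPM in P1, 15.6, 31.4 and 18.0 in CP1 and 16.04, 14.4, 8.44 and 14.8 in CP2, a log2 fold change of -6.01 ± 0.26. Tjp3, a zonula occludens scaffold, was at 158, 213 and 201 CPM in P1, 2.40, 14.2 and 9.15 in CP1 and 2.26, 1.82, 1.64 and 2.19 in CP2. CP1 replicates 2 and 3 held the highest CP levels of both genes. Cdh1, the cadherin of epithelial junctions, was at 1303, 1388 and 1549 CPM in P1, 25.1, 102 and 61.2 in CP1 and 35.5, 26.02, 16.8 and 21.9 in CP2. The CP2 minus CP1 difference was -1.32 ± 0.39 for Cdh1 (adjusted p = 0.0214) and -2.12 ± 0.47 for Tjp3 (adjusted p = 0.00507). Without CP1 replicates 2 and 3, the tumours with the largest share of urothelial markers, these differences were -0.00 and -0.29. The common log2 fold changes were then -5.82 and -6.45 in place of -5.16 ± 0.36 and -5.53 ± 0.38. The part of urothelial tissue in these values was not tested. Without CP1 replicate 2 alone, the difference for Cdh1 was -0.79 (adjusted p = 0.114). Leaving out CP2 replicate 3 or 4 gave adjusted p = 0.0569 and 0.0547.

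The claudin of leaky epithelia Cldn2 was at 548, 732 and 583 CPM in P1, 1.06, 0.877 and 1.62 in CP1 and 7.92, 0.589, 1.19 and 1.54 in CP2. CP2 replicate 1 held the highest CP level, and without it the log2 fold change of -8.42 ± 0.62 became -9.08. Ocln, the occludin of tight junctions, was at 86.5, 101 and 90.2 CPM in P1 and at 2.23 to 7.14 CPM in CP. Grhl3, a grainyhead factor of surface epithelium, went against its list, with 0.0924, 0.187 and 0.183 CPM in P1, 1.91, 27.7 and 19.8 in CP1 and 12.3, 13.9, 11.6 and 11.3 in CP2. Its log2 fold change of 6.50 ± 0.89 became 4.94 without CP1 replicates 2 and 3.

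On the mesenchymal side, Zeb2 was at 35.2, 27.1 and 16.7 CPM in P1, 149.5, 144 and 157 in CP1 and 190.3, 158, 178 and 152 in CP2, and all 7 CP tumours lay in a narrow range. Cdh2, the cadherin of neural and mesenchymal cells, was at 5.21, 5.27 and 4.42 CPM in P1 and at 27.4 to 41.7 CPM in CP, a log2 fold change of 2.83 ± 0.15. S100a4, a calcium sensor linked to cell motility, was at 7.64, 10.9 and 21.1 CPM in P1, 409, 525 and 394 in CP1 and 349.5, 255, 309 and 194 in CP2. Cdh11 ran the other way, at 125, 96.0 and 57.3 CPM in P1 and 29.1 to 51.3 CPM in CP. Without P1 replicates 1 and 2 the log2 fold change was 3.23 for Zeb2 in place of 2.60 ± 0.21, 4.03 for S100a4 in place of 4.73 ± 0.37 and -0.71 for Cdh11 in place of -1.37 ± 0.21. Fibroblast markers summed to 0.545% to 0.931% of counts in P1, 1.72% to 2.61% in CP1 and 0.971% to 1.21% in CP2. Of 15 tested, 4 were higher (7 without P1 replicates 1 and 2), namely Col3a1, Col5a1, Dpt and Postn, and 1 was lower, Thy1. Col1a1 was no member, with P1 at 1872 to 3426 CPM, CP1 above it at 4154 to 6785 CPM and CP2 at 934 to 1924 CPM, which overlapped P1. The part of host fibroblasts in the mesenchymal genes was not tested.

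Of 26 integrin and laminin genes 7 were higher and 6 lower, and of 40 collagens 11 were higher and 4 lower. The laminin that anchors epithelia to their basement membrane holds the chains encoded by Lama3 and Lamb3, and both were lower. Lamb3 was at 300.1, 277 and 294 CPM in P1, 7.24, 22.7 and 28.7 in CP1 and 21.7, 21.5, 20.8 and 18.9 in CP2, and Lama3 at 159, 138 and 77.3 CPM in P1, 4.63, 11.9 and 9.03 in CP1 and 13.2, 7.90, 5.61 and 9.40 in CP2. CP1 replicate 1 was the lowest tumour for Lamb3, and the groups were more than 5-fold apart at their closest for both chains. The chains of laminins in other basement membranes were higher, with Lamb1 at 112, 46.9 and 61.6 CPM in P1 and 251 to 449 CPM in CP, and Lamc1 at 238, 134 and 131 CPM and 405 to 546 CPM. Itgb4, which binds that laminin with Itga6, was a lower member, and Itgb1 a higher one. Without CP1 replicates 2 and 3 the log2 fold change of Lamb3 was -4.56 in place of -3.85 ± 0.29, and without P1 replicates 1 and 2 that of Lama3 was -3.17 in place of -3.83 ± 0.32.

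The collagen VI chains Col6a1 and Col6a2 stood about an order of magnitude higher in CP. Col6a1 was at 294, 226 and 221 CPM in P1, 3553, 3022 and 3736 in CP1 and 3698, 3255, 3299 and 3351 in CP2, a log2 fold change of 3.79 ± 0.16, and CP2 and CP1 differed by -0.02 ± 0.14 (adjusted p = 0.938). Col6a2 was at 222, 178 and 191 CPM in P1 and at 1784 to 2434 CPM in CP. Spp1, the secreted phosphoprotein osteopontin, was among the most abundant lower members, at 5247, 4402 and 4657 CPM in P1, 995, 437 and 369.7 in CP1 and 394, 424, 331 and 363 in CP2. Over the whole matrix and protease list 8 were higher and 7 lower of 32, and without P1 replicates 1 and 2 there were 15 higher, and 13 with libraries scaled by their totals only.

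Genes of mitosis and DNA replication were higher at modest folds. Of 30 mitotic genes 20 were higher and 1 lower, with a median log2 fold change of 0.85, and of 32 replication genes 12 were higher and 0 lower (5 lower without P1 replicates 1 and 2, and 1 with DESeq2 size factors), with a median of 0.44. Foxm1, the transcription factor of the G2 and M phase genes, was at 37.8, 35.0 and 38.8 CPM in P1, 84.0, 86.3 and 82.9 in CP1 and 105, 102, 130.4 and 121 in CP2. The 3 lines did not overlap, and CP2 exceeded CP1 by 0.44 ± 0.10 on the log2 scale (adjusted p = 0.00474), and by 0.44 without CP1 replicates 2 and 3. Nuf2, a kinetochore protein, was at 9.86, 10.3 and 10.99 CPM in P1 and at 28.2 to 47.5 CPM in CP. Kif20a, a kinesin of cytokinesis, was at 33.0, 25.7 and 25.5 CPM in P1 and at 58.9 to 83.7 CPM in CP. Kif23, another kinesin of cytokinesis, was the exception, at 59.3, 66.0 and 70.2 CPM in P1, 42.2, 38.5 and 33.1 in CP1 and 32.3, 31.1, 44.9 and 41.7 in CP2. Cdk1 was no member, because P1 replicate 3 at 69.0 CPM exceeded CP2 replicates 1 and 2 at 64.4 and 67.2 CPM.

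Rrm2, a subunit of ribonucleotide reductase, had the widest gap on the replication list, with 93.4, 101 and 139.6 CPM in P1, 463, 869 and 1181 in CP1 and 352, 254, 237 and 253 in CP2. Subtracting CP1 from CP2 gave -1.61 ± 0.28 for Rrm2 (adjusted p = 0.00148), and -0.76 without CP1 replicates 2 and 3. Orc6 and Cdc45, which load and start the replicative helicase, were at 14.8 to 23.3 CPM and 12.5 to 17.0 CPM in P1, and at 35.6 to 66.3 CPM and 23.5 to 38.5 CPM in CP. Among the inhibitors of the cell cycle, Cdkn2a, which encodes p16INK4A and p19ARF, was at 27.1, 15.2 and 30.7 CPM in P1, 0.707, 0.682 and 0.648 in CP1 and 0.617, 0.540, 0.365 and 0.465 in CP2. Its neighbour Cdkn2b was at 58.3, 42.2 and 61.9 CPM in P1, 3.39, 8.09 and 7.49 in CP1 and 21.95, 17.9, 18.3 and 15.7 in CP2. The log2 fold changes were -5.38 ± 0.23 and -2.32 ± 0.23, and CP2 minus CP1 was -0.45 ± 0.31 for Cdkn2a (adjusted p = 0.254) and 1.55 ± 0.28 for Cdkn2b (adjusted p = 0.00170). Cdkn2d was higher, at 13.8, 13.8 and 19.3 CPM in P1 and 40.6 to 62.9 CPM in CP. The chromatin protein Hmga2 was at 5.42, 6.71 and 7.12 CPM in P1, 9.96, 11.5 and 15.3 in CP1 and 135, 102, 119 and 86.1 in CP2, a difference between the CP lines of 3.18 ± 0.21 (adjusted p = 6.10e-06).

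Growth factor pathways differed in their ligands and receptors. Of 33 BMP and TGF-beta genes, 13 were higher and 2 lower (4 without P1 replicates 1 and 2, and 4 without CP1 replicates 2 and 3), with a median log2 fold change of 0.77. Bmp2 was at 11.4, 6.71 and 7.52 CPM in P1, 199.7, 209 and 237 in CP1 and 497, 483, 469 and 443 in CP2, the 3 lines lying apart, and its log2 fold change was 5.22 ± 0.20. Bmp5 was at 0, 0.0312 and 0.0365 CPM in P1, 0.671, 2.92 and 1.70 in CP1 and 32.8, 42.7, 34.6 and 31.2 in CP2. Summed over tumours, CP held 3086 counts and P1 2, a ratio of 849 after scaling (exact 95% binomial interval 235 to 7016, for counting error only). Grem1, a secreted BMP antagonist, was higher as well, at 2.06, 0.561 and 0.694 CPM in P1 and 32.8 to 88.3 CPM in CP. Tgfbr1, a receptor for TGF-beta, was lower, at 269, 215 and 173 CPM in P1 and 87.5 to 118 CPM in CP. Without P1 replicate 1 the log2 fold change of Grem1 was 6.797 in place of 5.98 ± 0.50, and without P1 replicates 1 and 2 it was 6.64.

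Among 25 genes of FGF signalling and its feedback, 10 were higher, with the ERK feedback inhibitors Spry1, Spry4, Spred1, Spred2, Spred3 and Dusp4 among them, and 6 were lower, with the ligands Fgf2, Fgf9 and Fgf10 and the receptors Fgfr2 and Fgfr4. Their median log2 fold change was -0.17. Fgfr1 was at 73.5, 40.4 and 44.0 CPM in P1, 142, 161 and 190.0 in CP1 and 272, 234, 167 and 257 in CP2, all above P1. Spry1 was at 25.05, 23.4 and 22.9 CPM in P1 and 48.2 to 103 CPM in CP, and the ETS factor Etv1 at 2.59, 1.34 and 1.497 CPM and 10.8 to 15.99 CPM. In the ErbB family, the ligand Nrg1 was higher, at 7.30, 4.12 and 4.09 CPM in P1, 35.0, 29.9 and 27.2 in CP1 and 12.7, 17.3, 13.8 and 17.5 in CP2. Of the receptors of the family, Erbb3 was lower, at 138, 167 and 98.3 CPM in P1, 3.53, 19.8 and 12.5 in CP1 and 5.96, 3.19, 4.56 and 4.65 in CP2. Erbb2 was lower as well, at 147 to 151 CPM in P1 and 43.0 to 70.3 CPM in CP. In all, 5 of 15 genes on that list were lower (9 without P1 replicates 1 and 2). The log2 fold change of Erbb3 was -4.18 ± 0.39, and -5.06 without CP1 replicates 2 and 3. Irs1, the docking protein of insulin receptors, was at 11.2, 4.15 and 1.72 CPM in P1, 65.2, 53.4 and 60.0 in CP1 and 57.5, 48.9, 48.1 and 44.6 in CP2. Its log2 fold change of 3.25 ± 0.47 became 4.18 without P1 replicate 1 and 4.95 without P1 replicates 1 and 2.

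Of 20 Notch genes 5 were lower (8 without P1 replicates 1 and 2) and 0 higher (3 without them, and 2 without CP1 replicates 2 and 3 or with libraries scaled by their totals only). Dll1, a Notch ligand, was at 26.8, 35.5 and 30.7 CPM in P1 and 2.41 to 5.06 CPM in CP, and the target Hes1 at 108, 107 and 137 CPM and 39.1 to 54.2 CPM. In the Hedgehog pathway, Gli3, a transcription factor that acts mainly as a repressor, was at 10.8, 6.18 and 5.22 CPM in P1, 54.5, 71.0 and 56.0 in CP1 and 107, 90.3, 98.9 and 89.5 in CP2. In the Hippo pathway, Yap1 and Wwtr1 were higher members, and the TEAD partners were divided. Tead1 was higher, at 83.8, 61.4 and 50.05 CPM in P1 and 205 to 251 CPM in CP, and Tead4 lower, at 21.4, 23.3 and 24.3 CPM in P1 and 3.89 to 9.77 CPM in CP. The receptor kinase Axl was at 192, 103 and 99.1 CPM in P1, 597, 596 and 683 in CP1 and 673, 640.3, 618 and 582 in CP2, with a difference between the CP lines of 0.01 ± 0.21 (adjusted p = 0.984). Its log2 fold change against P1 was 2.26 ± 0.22.

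More of the immediate early and of the NF-kappaB and chemokine genes were lower than higher. Of 20 immediate early genes 10 were lower and 1 was higher, with a median log2 fold change of -0.75. Fos was at 75.7, 171 and 92.6 CPM in P1 and 14.5 to 38.7 CPM in CP, and Jun at 252, 233 and 260.5 CPM and 102 to 157 CPM. Fosl1 went the other way, at 7.33, 12.9 and 13.2 CPM in P1, 41.9, 40.1 and 75.3 in CP1 and 26.4, 32.7, 28.3 and 27.1 in CP2. Of 32 NF-kappaB and chemokine genes 9 were lower and 3 higher (5 without P1 replicates 1 and 2). Icam1, the adhesion receptor of leukocytes, was at 120.4, 145 and 111 CPM in P1 and 10.3 to 17.9 CPM in CP, a log2 fold change of -3.06 ± 0.15. Csf1, a growth factor of macrophages, was higher, at 33.3 to 43.7 CPM in P1 and 61.1 to 96.4 CPM in CP. Cxcl15, a chemokine of lung and other epithelia, was at 0.493, 0.125 and 0.219 CPM in P1, 64.8, 281 and 42.2 in CP1 and 26.7, 20.3, 15.2 and 14.4 in CP2. CP1 replicate 2 stood far above the other tumours, and the log2 fold change of 7.44 ± 0.87 became 6.81 without it and 8.14 without P1 replicate 1.

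The 6 lower genes among 20 of antigen presentation all belonged to MHC class II, which presents extracellular antigen. Cd74, its invariant chain, was at 542, 746 and 542 CPM in P1, 219, 163 and 47.0 in CP1 and 65.9, 44.6, 97.2 and 91.6 in CP2, and H2-Ab1 at 139, 189.6 and 139 CPM in P1, 73.7, 48.8 and 17.1 in CP1 and 23.3, 20.8, 32.9 and 32.3 in CP2. Both genes were lowest in CP1 replicate 3 and CP2. The summed macrophage markers overlapped between the lines, at 0.109% to 0.147% of counts in P1 and 0.0698% to 0.186% in CP, and 1 of 15 was a higher and 0 a lower member (2 and 4 without P1 replicates 1 and 2, and 3 higher without CP1 replicates 2 and 3). Of 19 lymphocyte markers 4 were lower (Cd79b, Ighm, Cd8a and Gzma), with Ighm at 15.4 to 95.9 CPM in P1 and 2.06 to 8.83 CPM in CP. These markers summed to 0.0102% to 0.0242% of counts in P1, 0.00307% to 0.00523% in CP1 and 0.0363% to 0.0473% in CP2. The part of host lymphocytes in the class II genes was not tested.

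In metabolism, 13 of 28 genes of glutathione and oxidant defence were lower and 2 higher, with a median log2 fold change of -0.73. Gsr, glutathione reductase, was at 279.6, 293 and 348 CPM in P1, 59.5, 88.3 and 77.3 in CP1 and 100.2, 98.9, 96.3 and 86.7 in CP2. Gsta3, a glutathione transferase, was at 183, 379 and 432 CPM in P1, 2.54, 28.2 and 19.8 in CP1 and 2.72, 0.540, 1.60 and 0.559 in CP2, and its log2 fold change of -6.12 ± 0.63 became -7.48 without CP1 replicates 2 and 3. Slc7a11, the cystine importer that feeds glutathione synthesis, was higher, at 4.59, 3.90 and 4.23 CPM in P1, 14.3, 29.6 and 18.0 in CP1 and 196, 197, 186 and 175 in CP2. CP2 exceeded CP1 by 3.19 ± 0.22 on the log2 scale (adjusted p = 8.90e-06). Of 29 genes of cholesterol and fatty acid synthesis 6 were higher and 1 lower (4 without CP1 replicates 2 and 3), among the higher ones Scd1, the fatty acid desaturase, at 115, 153 and 86.5 CPM in P1, 622, 383 and 671 in CP1 and 379.9, 366, 373 and 277 in CP2. Car9, a carbonic anhydrase induced by hypoxia, was lower, at 143, 244 and 223 CPM in P1 and 5.52 to 21.6 CPM in CP, although the hypoxia and glycolysis list was even, with 4 higher and 4 lower (7 without P1 replicates 1 and 2) of 30. Of 30 genes of oxidative phosphorylation 6 were lower, but 24 were without P1 replicates 1 and 2 and 1 with libraries scaled by their totals only.

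Of 25 luminal prostate genes 11 were lower and 1 was higher (2 without P1 replicates 1 and 2 or with libraries scaled by their totals only), with a median log2 fold change of -1.45. Known androgen targets were divided, with 5 higher and 7 lower of 21. Fkbp5, a chaperone induced by steroid receptors, was at 75.8, 80.3 and 51.8 CPM in P1, 130.4, 231 and 192 in CP1 and 313, 151, 150.4 and 122 in CP2. Steap4, a metalloreductase, was lower, at 162, 189 and 176 CPM in P1, 17.0, 12.5 and 5.95 in CP1 and 3.75, 2.85, 7.44 and 3.03 in CP2, as was Slc45a3, the prostate protein prostein, at 44.1, 53.4 and 63.8 CPM in P1, 19.1, 9.03 and 8.47 in CP1 and 5.09, 4.81, 2.87 and 3.86 in CP2. The luminal genes together made up 1.29% to 2.64% of counts in P1, 0.239% to 0.366% in CP1 and 0.146% to 0.195% in CP2.

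**Figure D4:**
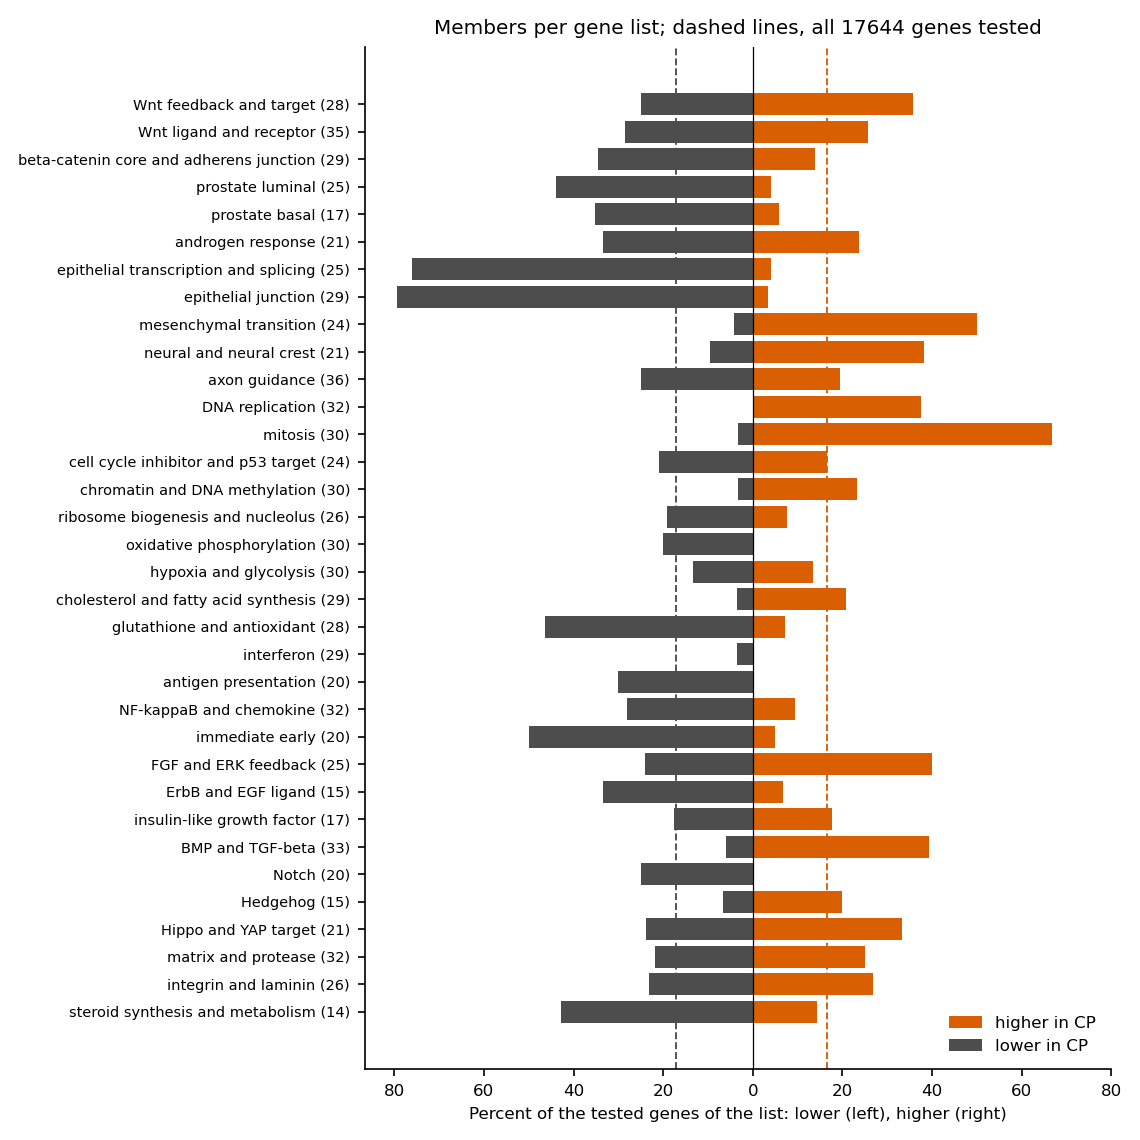
Percent of the tested genes of each of 34 gene lists that were higher (right) or lower (left) in all 7 CP tumours, with the number tested in brackets and the shares over all 17644 genes (16.5% higher, 17.1% lower) as dashed lines. Mitosis and the mesenchymal list extend farthest to the right, and the epithelial junction and transcription lists farthest to the left.

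Several lists stayed near or under the shares of all genes in both directions. Of 29 interferon genes 1 was lower and 0 higher (5 higher without P1 replicates 1 and 2). Ribosome biogenesis had 2 higher and 5 lower of 26 (11 lower without them, and 4 higher and 1 lower with libraries scaled by their totals only), and 2 of 78 cytosolic ribosomal proteins were lower (0 with that scaling). Of 354 zinc finger genes of the Zfp series 36 were higher and 40 lower. Smooth muscle markers had 0 members among 11 (6 lower without CP1 replicates 2 and 3, 3 higher without P1 replicates 1 and 2), and the adipocyte list had 0 among 8. The seminal vesicle list lay above the share of all genes, with 5 of 15 lower (14 without P1 replicates 1 and 2, when a single P1 tumour has to lie apart).

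The 2 CP lines were compared within the members by the test that the rule did not use. At an adjusted p below 0.05, 7635 of all 17644 genes differed between CP2 and CP1 (43.3%), with 3764 higher in CP2 (21.3%) and 3871 lower (21.9%). Among the members, 1227 of 2916 higher genes differed (42.1%) and 1057 of 3012 lower genes (35.1%), together 2284 (38.5%), against 45.7% of the non-members. CP2 lay farther from P1 than CP1 in 742 of the 1227 (60.5%) and in 691 of the 1057 (65.4%), against 60.5% of the called genes over all genes tested. The share of members called is thus near that of all genes, and a common direction did not mean an equal level. The 95% interval of the difference lay within 1 log2 unit on either side of 0 for 1983 higher members (68.0%) and 1374 lower members (45.6%). With CP2 replicate 1 counted as CP1, as its title reads, the same test called 0 of the 5928 members, 1588 had an unadjusted p below 0.05, and the smallest adjusted p was 0.0820. Without CP1 replicates 2 and 3, 1221 members were called.

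**Figure D5:**
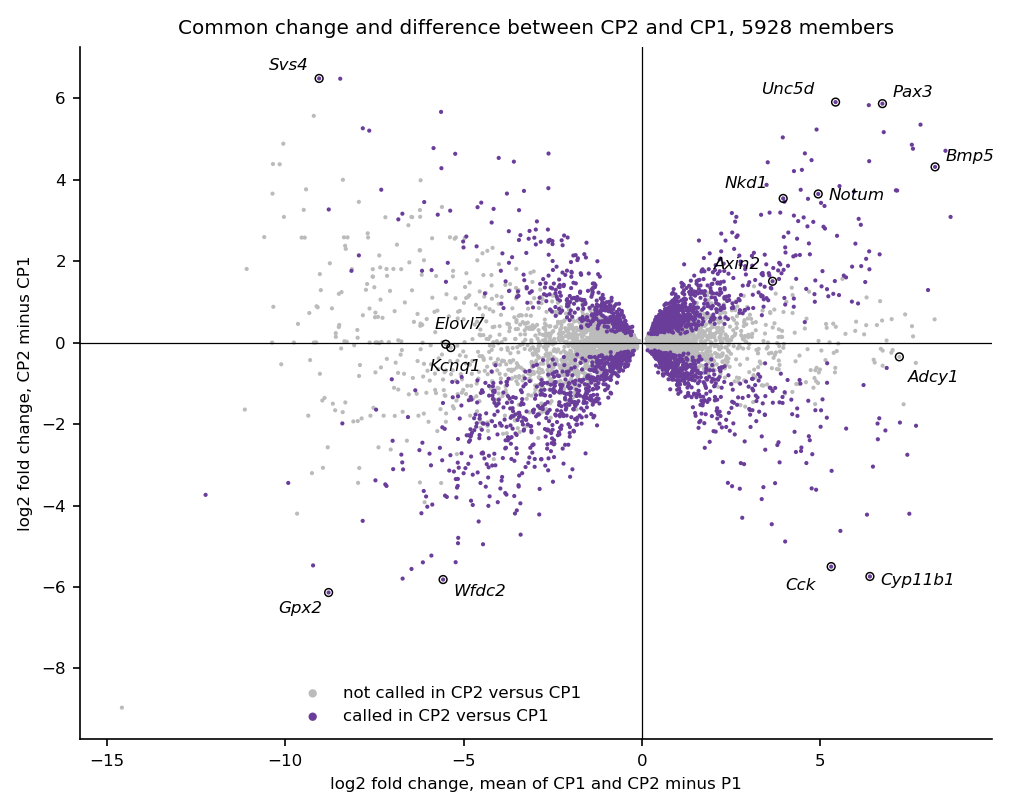
Common log2 fold change of the 5928 members (mean of CP1 and CP2 minus P1, horizontal) against the log2 difference CP2 minus CP1 (vertical), 1 point per gene, with the 2284 genes called in CP2 versus CP1 in purple. Genes near the horizontal line, such as Adcy1, Elovl7 and Kcnq1, had 95% intervals of that difference within 1 log2 unit of 0, whereas Pax3, Unc5d, Cck and Cyp11b1 lie far from it.

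Some large common changes were of very unequal size in the CP lines. Cyp11b1, the last enzyme of corticosterone synthesis, was at 0.616, 0.125 and 0.256 CPM in P1, 188, 151 and 288 in CP1 and 2.16, 5.30, 3.01 and 5.12 in CP2. Cck, the peptide hormone cholecystokinin, was at 6.75, 1.31 and 3.03 CPM in P1, 1036, 813 and 1109 in CP1 and 16.5, 20.4, 20.2 and 30.1 in CP2. CP1 thus exceeded CP2 more than 20-fold in every pair of tumours, with log2 differences of -5.74 ± 0.40 (adjusted p = 8.05e-06) and -5.50 ± 0.46 (adjusted p = 2.06e-05). Pax3, a transcription factor of neural crest and muscle progenitors, was at 0, 0 and 0.0365 CPM in P1, 0.177, 0.195 and 0.284 in CP1 and 13.9, 12.4, 12.7 and 12.5 in CP2. Unc5d, a netrin receptor, was at 0.0308, 0.0312 and 0.0365 CPM in P1, 0.283, 0.130 and 0.203 in CP1 and 16.1, 10.4, 13.3 and 10.1 in CP2. Hrh3, a histamine receptor, was at 0, 0 and 0.0365 CPM in P1, 0.106, 1.36 and 0.122 in CP1 and 24.4, 27.5, 18.3 and 19.9 in CP2. For these 3 genes the level in CP1 was at most 1.36 CPM, and CP2 stood far above both other lines. CP2 exceeded CP1 by 5.86 ± 0.34 for Pax3 (adjusted p = 3.62e-06), by 5.90 ± 0.32 for Unc5d (adjusted p = 2.49e-06) and by 5.35 ± 0.73 for Hrh3 (adjusted p = 0.000356).

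Among the lower members, Gpx2, a glutathione peroxidase of epithelia, was at 185, 353 and 585 CPM in P1, 1.27, 15.6 and 4.25 in CP1 and 0, 0.344, 0.0456 and 0 in CP2. Wfdc2, a secreted protease inhibitor, was at 276, 451 and 618 CPM in P1, 9.58, 124 and 77.6 in CP1 and 3.39, 0.442, 0.319 and 0.931 in CP2, and the antibacterial lectin Reg3g at 75.8, 175 and 97.6 CPM in P1, 1.70, 10.6 and 12.5 in CP1 and 0, 0.147, 0.228 and 0.186 in CP2. CP1 replicates 2 and 3 were the high CP tumours for all 3 genes. The log2 difference of CP2 from CP1 was -6.14 ± 1.18 for Gpx2 (adjusted p = 0.00244, with a difference of -3.66 without those replicates), -5.82 ± 0.93 for Wfdc2 (adjusted p = 0.000867) and -5.79 ± 0.85 for Reg3g (adjusted p = 0.000514). Without them the common log2 fold change was -10.02 for Gpx2 in place of -8.79 ± 0.77 (-9.47 without CP1 replicate 2, -9.93 without CP2 replicate 2 and -9.46 without P1 replicates 1 and 2), -7.02 for Wfdc2 in place of -5.58 ± 0.72 and -7.85 for Reg3g in place of -6.71 ± 0.57. Svs4, a seminal vesicle protein, was at 48232, 4365 and 6613 CPM in P1, 3.75, 0.747 and 7.37 in CP1 and 693, 11.1, 1.78 and 699 in CP2, with CP2 replicates 1 and 4 high. Its difference of 6.48 ± 2.11 between the CP lines (adjusted p = 0.0312) missed the threshold when CP1 replicate 1, 2 or 3 or CP2 replicate 1 or 4 was left out (adjusted p from 0.0577 to 0.0928). Vsig1, an adhesion protein of the stomach, was at 36.7, 64.9 and 65.9 CPM in P1, had 1 count in all of CP1 and 124 in CP2, a ratio of CP2 to CP1 of 125 (exact 95% binomial interval 21.99 to 4970, for counting error only).

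Other members had levels in CP1 and CP2 whose difference was bounded on both sides. For these genes the 95% interval of CP2 minus CP1 lay within 1 log2 unit of 0, beside common changes of more than 4 log2 units. Adcy1 differed by -0.35 ± 0.26 (adjusted p = 0.299), Slc14a1 by -0.15 ± 0.27 (adjusted p = 0.664) and Fendrr by 0.21 ± 0.30 (adjusted p = 0.586). Nkain2 differed by -0.62 ± 0.15 and was called (adjusted p = 0.00891), and it differed by -0.67 without CP1 replicates 2 and 3. Diras2, a small GTPase of the brain, was at 0.924, 1.28 and 0.621 CPM in P1, 29.5, 36.8 and 64.6 in CP1 and 48.2, 45.9, 40.7 and 36.7 in CP2, and the CP lines differed by -0.02 ± 0.26 (adjusted p = 0.949). Among the lower members, Elovl7 was at 41.7, 49.1 and 58.9 CPM in P1 and at 0.838 to 1.69 CPM in CP, with a common log2 fold change of -5.36 ± 0.19 and a difference between the CP lines of -0.12 ± 0.24 (adjusted p = 0.705). Kcnq1, a potassium channel of epithelia and heart, was at 114, 185 and 175 CPM in P1 and at 1.92 to 4.66 CPM in CP, with a difference of -0.04 ± 0.34 (adjusted p = 0.931). Rhpn2, the calcitonin receptor partner Ramp3 and F5, coagulation factor V, had common log2 fold changes of -4.55 ± 0.19, -4.36 ± 0.26 and -4.30 ± 0.26. CP2 minus CP1 was 0.19 ± 0.23 (adjusted p = 0.528), 0.09 ± 0.30 (adjusted p = 0.828) and 0.08 ± 0.33 (adjusted p = 0.854) for these 3 genes.

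Of the 327 higher members with a log2 fold change of at least 3, the interval lay within 1 unit for 36, and 204 were called as different (62.4%, 119 of them farther from P1 in CP2). Of the 754 lower members with a log2 fold change of -3 or less, it did so for 25, and 301 were called (39.9%, 240 of them farther from P1 in CP2). Those farther from P1 in CP2 were 58.3% of these called higher members and 79.7% of the lower ones. Over all called genes the share was 60.5%. The higher members spanned more of the genome per gene, with a median span of 30.8 kb against 19.5 kb for the lower members and 19.1 kb for all genes tested. By autosome, the share of higher members ran from 10.6% on chromosome 17 to 23.7% on chromosome 19, and that of lower members from 11.1% on chromosome 18 to 22.7% on chromosome 7.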

How the data were processed

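Total RNA of 10 orthografts (3 of P1, 3 of CP1, 4 of CP2) was sequenced after standard Illumina library preparation, per the labels' protocols. The deposited values are raw read counts per Ensembl gene, 1 table per tumour, made by the authors with tools that include HTSeq 0.6.0, TopHat2 2.1.0, DESeq2 1.14.1, Bowtie2 2.2.6.0, FastQC 0.11.4 and R 3.2.3 and with the build GRCm38.p3, per the submitters' processing notes. Strand and annotation settings are not given in the sources used here.

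Groups follow the tissue labels. Counts were filtered with filterByExpr (minimum count 10, minimum total 15), scaled by TMM and fitted over all 10 tumours with 1 mean per line in edgeR 4.0.16 (R 4.3.3), leaving 17644 of 47069 listed genes. The filter removed 131 higher and 453 lower genes that also met the rule. Log2 fold changes are given ± SE, and CP2 versus CP1 was tested with the quasi-likelihood test, Benjamini-Hochberg adjusted over all genes at 0.05. The code was tested on simulated data. Gene symbols came from GENCODE M21 for 46574 gene IDs, and promoters from RefSeq (GRCm38.p6). Named genes were the 15 members per direction with the widest gap, the 5 with the most unequal or most equal CP lines in each direction, and up to 3 per gene list, besides pathway genes and the examples at the edge of the rule. Further list members and tissue markers named by level or count were chosen after their values were seen. The members and the 46 lists were chosen with earlier results of these data known. Some items, including part of the genotypes, are not reported here. Alternatives were DESeq2 1.42.0 (size factors, and its Wald test), scaling by totals, no filter, leaving out tumours, and moving CP2 replicate 1 to CP1.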

Additional observations from a re-analysis of the deposited data

Results flagged for a closer look

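In 6 of the 113 genes examined, 1 CP2 tumour lay far from the other 3, where chance would flag about 1 group in 20. Gpx2 was at 0.344 CPM in CP2 replicate 2 against 0 to 0.0456 CPM in the others, Cldn2 at 7.92 CPM in replicate 1 against 0.589 to 1.54 CPM, and Fkbp5 at 313 CPM against 122 to 151 CPM. Rrm2 was at 352 CPM against 237 to 254 CPM, Ramp3 at 10.0 CPM against 21.3 to 22.5 CPM, and Scd1 at 277 CPM against 366 to 380 CPM.

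The change against P1 differed in size between the CP lines for 2284 of the 5928 members (edgeR quasi-likelihood test, Benjamini-Hochberg adjusted over all genes). This was 38.5% of the members, below the 43.3% of all 17644 genes tested, and 0 members were called with CP2 replicate 1 counted as CP1 (1588 at an unadjusted p below 0.05). Among the examined higher members, CP2 exceeded CP1 on the log2 scale by 1.504 for Axin2, 1.77 for Lef1, 2.50 for Tcf7, 3.54 for Nkd1, 3.65 for Notum, 2.16 for Apcdd1, 2.43 for Wnt6, 1.135 for Bmp2, 3.18 for Hmga2, 3.19 for Slc7a11, 0.44 for Foxm1 and 1.64 for Robo2. It did so by 5.86 for Pax3, 5.90 for Unc5d, 5.35 for Hrh3 and 4.31 for Bmp5, whose P1 levels were at or near 0. CP2 minus CP1 was -0.99 for Wnt5a, -0.62 for Nkain2, -5.74 for Cyp11b1, -5.50 for Cck, -2.16 for Brinp3, -2.37 for Grik2, -1.99 for Gria4, -1.96 for Gpr37, -2.75 for Cxcl15 and -1.61 for Rrm2.

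Among the lower members, CP2 minus CP1 was -0.62 for Myc, -6.14 for Gpx2, -5.82 for Wfdc2, -5.79 for Reg3g, -1.32 for Cdh1 and -2.12 for Tjp3, so that CP2 lay farther from P1. It was 6.48 for Svs4 and 5.26 for Wnt7a, for which CP1 lay farther from P1.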

How the results depend on the processing

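No paired analysis was possible because the lines tested against each other, CP1 and CP2, share no sample number in their titles, and the replicate numbers used here follow the order of deposit. P1 and CP2 share 2 title numbers, but P1 enters no test. Of 1728 alternative log2 fold changes of the named genes, 67 moved by more than the spread between replicates. None changed sign, which for members the rule largely fixes when tumours are left out. The numbers of higher and lower members were 2916 and 3012, and leaving out 1 tumour at a time gave 2975 to 3496 higher and 3063 to 3805 lower members. Without P1 replicates 1 and 2 they were 4991 and 5459, since 1 P1 tumour then sets the rule. Scaling by totals only moved the median of all genes by 0.111 on the log2 scale and gave 3595 higher and 2386 lower members (60.1% higher, against 49.2%). Members called in CP2 versus CP1 numbered 1850 to 2053 with 1 tumour left out, 1221 without CP1 replicates 2 and 3, and 0 with CP2 replicate 1 counted as CP1 (edgeR, 1588 at an unadjusted p below 0.05). Depth limits folds in both directions: P1 was at 0 for 24 higher and CP at 0 for 7 lower members, whose folds are bounds.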

Other observations

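The Hox clusters lay in opposite directions. Of 11 tested Hoxa genes 4 were higher in all CP tumours, among them Hoxa4, Hoxa11 and Hoxa13, and 0 lower, whereas 6 of 9 Hoxb genes and 6 of 6 Hoxd genes were lower and 0 higher. Mean CPM of Hoxa13 was 8.50 in P1, 43.4 in CP1 and 75.2 in CP2, and that of Hoxb8 was 38.0, 8.78 and 8.77. With libraries scaled by their totals only, 5 Hoxa genes were higher, and 5 Hoxb and 6 Hoxd genes lower.

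Among other gene families, 6 of 14 tubulins were higher and 1 lower, and 12 of 35 kinesins were higher and 8 lower. Of 19 ephrins and Eph receptors 7 were lower and 0 higher, of 20 semaphorins 8 were lower and 1 higher, and of 11 annexins 6 were lower and 1 higher. Of 77 mitochondrial ribosomal proteins 14 were lower and 1 higher, but 4 were lower with libraries scaled by their totals only. Over all genes tested 16.5% were higher and 17.1% lower. The lower share of mitochondrial ribosomal proteins, 18.2%, was thus near that of all genes, and that of kinesins was 22.9%.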
